A study of Homo sapiens with 11 samples.

Results

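The genes described here encode the enzymes that write and remove DNA methylation and the core of Polycomb repressive complex 2 (PRC2). They were chosen by name from the joined table of raw counts, as the rows whose symbol was DNMT1, DNMT3A, DNMT3B, TET1, TET2, TET3, EZH1, EZH2, EED or SUZ12. All 10 were found, of 38557 annotated genes, and all 10 passed the filter on low counts that left 14683 genes for testing. RNA had been sequenced from MOLM-13, a human acute myeloid leukemia line whose rearranged KMT2A gene (KMT2A-r) makes it dependent on Menin, and all libraries came from this 1 line. The DMSO group (n = 4) received solvent for 72 h, the MI-503 group (n = 4) received 1 µM of this Menin inhibitor for 72 h, and the MI-503 + PR-957 group (n = 3, replicates 1, 2 and 4), called the combination below, received 1 µM MI-503 with 100 nM PR-957 for 72 h. PR-957 inhibits PSMB8, a catalytic subunit of the immunoproteasome. No library analysed here had received PR-957 alone, so the effect of PR-957 was read only on top of MI-503. The labels do not say whether replicates were separate cultures, and the p-values therefore measure only the spread between these libraries.

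DNMT1 copies existing methylation onto new DNA strands after replication, whereas DNMT3A and DNMT3B place methyl groups at unmethylated sites. The TET dioxygenases oxidize 5-methylcytosine and so start its removal. PRC2 methylates lysine 27 of histone H3 (H3K27), a mark of silenced genes, through either EZH1 or EZH2, and needs EED and SUZ12 for activity. EZH2 is the form typical of dividing cells and EZH1 that of cells that have left the cycle. DNMT3A, TET2 and EZH2 are recurrently mutated in myeloid malignancy.

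In hg38, the build of the deposited counts, DNMT1 lies at chr19:10133346-10194953 (minus strand), DNMT3A at chr2:25227874-25342590 (minus) and DNMT3B at chr20:32762385-32809356 (plus). TET1 lies at chr10:68560337-68700794, TET2 at chr4:105145875-105279803 and TET3 at chr2:73982036-74135394, all on the plus strand. EZH1 lies at chr17:42700275-42745078 (minus), EZH2 at chr7:148807374-148884344 (minus), EED at chr11:86244384-86285420 (plus) and SUZ12 at chr17:31937007-32001040 (plus). Counts were taken over annotated exons, UTRs included. TET3 shared 1.47% of its exon bases with LOC107985898, so part of its counts could belong to that gene, and the other members shared none. An exact second copy elsewhere in the genome was found for 0.48% of the 100-base exon windows of SUZ12 and 0.08% of those of TET1, and for none of the other members.

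The members' RefSeq promoter windows (GRCh38.p14, 250 bases before to 50 after each start, 20 windows for the 10 genes) were searched on both strands for the E2F motif, bound by the factors that switch on replication genes, spelled TTTCCCGC, TTTCGCGC, TTTGCCGC or TTTGGCGC. It was present in 3.31% of all 35116 such windows and in those of DNMT1, SUZ12 and EZH1 and 1 of the 2 windows of EZH2, but not in the windows of DNMT3A, DNMT3B, TET1, TET2, TET3 or EED. These 4 promoters are shown from 200 bases before the start to 20 after it, each on its own gene's strand, because they hold the motif (in capitals) in 3 members that were lower after treatment and in 1 that was higher. A match is a description of the letters and not a bound site.
DNMT1 (chr19:10194934-10195153, minus): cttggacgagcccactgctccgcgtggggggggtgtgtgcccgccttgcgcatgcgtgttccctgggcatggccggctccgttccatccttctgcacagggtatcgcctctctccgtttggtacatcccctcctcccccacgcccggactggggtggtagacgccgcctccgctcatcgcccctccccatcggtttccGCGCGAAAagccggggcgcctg
EZH2 (chr7:148884272-148884491, minus): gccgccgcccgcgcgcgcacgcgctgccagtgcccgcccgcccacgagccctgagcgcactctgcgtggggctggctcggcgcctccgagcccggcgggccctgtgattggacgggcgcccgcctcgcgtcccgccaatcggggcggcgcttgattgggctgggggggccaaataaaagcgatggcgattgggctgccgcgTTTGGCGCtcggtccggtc
SUZ12 (chr17:31936807-31937026, plus): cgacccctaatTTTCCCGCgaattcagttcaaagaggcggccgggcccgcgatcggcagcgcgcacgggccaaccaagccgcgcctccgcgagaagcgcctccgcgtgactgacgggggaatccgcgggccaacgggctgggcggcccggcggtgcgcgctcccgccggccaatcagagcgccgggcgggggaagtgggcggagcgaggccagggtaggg
EZH1 (chr17:42745021-42745240, minus): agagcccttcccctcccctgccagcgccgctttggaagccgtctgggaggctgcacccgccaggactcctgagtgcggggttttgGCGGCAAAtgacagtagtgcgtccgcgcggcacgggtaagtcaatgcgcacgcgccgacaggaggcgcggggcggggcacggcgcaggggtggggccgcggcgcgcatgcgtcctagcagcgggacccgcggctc

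In DNMT1 the motif read TTTCGCGC on the strand opposite to the gene, across the start itself (from 2 bases before it to base 6). In EZH2 it read TTTGGCGC on the gene's strand at bases 2 to 9. In SUZ12 it began 189 bases before the start and in EZH1 115 bases before it, so these stood farther from the start than in DNMT1 and EZH2. None of the E2F matches overlapped a match of the other motifs searched. The EZH2 window also held 4 CCAAT boxes, a motif of cell-cycle promoters found in 34.6% of all windows, SUZ12, EED, DNMT3B and 1 of the 2 windows of TET3 held 1 each, and 2 of the 3 windows of TET1 held 2 each. A CHR motif (TTTGAA, in 15.2% of windows), bound in genes of late cell-cycle phases, was found in SUZ12, in 1 of the 2 windows of TET2 and in 1 of the 6 windows of DNMT3A. These promoters were rich in CpG, with 46 CG in this window of EZH2, 40 in SUZ12, 30 in DNMT1 and 30 in EZH1. The median over all windows was 14. The only DNMT3B window held 3. It lay at chr20:32779602-32779901, inside the gene, and no window covered the gene's annotated start at base 32762385. The promoter at that start was thus not searched for motifs or CpG.

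Libraries held 18.9 to 41.2 M counted fragments. All 10 myeloid markers listed for checking the label reached a mean of 1 CPM (counts scaled to the library total), including CD33, SPI1 and MPO. None of 5 T cell, 4 erythroid or 4 fibroblast markers did, and CD2 was at 0 in every library. PAX5 of the B cell list reached 1 CPM with MS4A1 at 0, and KRT8 and KRT18 of the epithelial list did too. The summed myeloid markers ranged from 1708 to 1784 CPM in DMSO, from 2336 to 2457 CPM in MI-503 and from 2592 to 5087 CPM in the combination, while the summed B cell markers stood at 47.6 to 49.2, 33.4 to 34.5 and 24.9 to 28.5 CPM. Combination replicate 1 stood apart from its group, with 36 of 10041 genes more than 2-fold from the mean of the other combination libraries against 4 and 13 genes for combination replicates 2 and 4, and with 0 or 1 for the DMSO and MI-503 libraries. Fold changes of DNMT3A, DNMT3B, TET1 and EZH2 are also given without it, whereas the marker sums and most values of the related lists are given only with it.

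Levels were first compared between the genes within DMSO, in TPM, which divide counts by exonic length before scaling to the library total. DNMT1 was the most abundant member at 335 ± 11.6 TPM (SD, n = 4), above 97.8% of tested genes. SUZ12 followed at 68.0 ± 2.91 TPM and EZH2 at 33.9 ± 1.27 TPM. DNMT3B (19.3 ± 0.685), TET3 (15.5 ± 0.738), EZH1 (11.8 ± 1.01) and EED (9.81 ± 0.170 TPM) came next, each apart from its neighbor in all 4 libraries. DNMT3A (4.97 ± 0.108 TPM) and TET2 (4.74 ± 0.154 TPM) were not separated, since their ranges overlapped, with DNMT3A above TET2 in 3 of 4 libraries. TET1 was near the limit of detection at 0.198 ± 0.0616 TPM, above 4.35% of tested genes. DNMT3B thus exceeded DNMT3A, TET3 was the leading TET gene and EZH2 exceeded EZH1.

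The design asks how these genes respond to Menin inhibition, to the combination, and to PR-957 added to MI-503. Differences were tested with edgeR over all 14683 genes, with calls made below an adjusted p of 0.05. After MI-503, 8 of 10 members were called, 2 higher and 6 lower, against 51.4% of all genes called, 22.0% higher and 29.3% lower. The combination against DMSO also gave 8 calls, 2 higher and 6 lower, against 64.5% of all genes, 31.7% higher and 32.8% lower. The combination against MI-503 gave 6 calls, 3 higher and 3 lower, against 47.4% of all genes, 23.6% higher and 23.8% lower. Both treated groups were compared with the same DMSO libraries, and the MI-503 libraries also serve as the reference for the combination, so these comparisons are not independent of each other.

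Ranges of CPM did not overlap between groups for 8 members in each comparison, where this held for 50.3%, 60.5% and 47.6% of all genes. Calls were common in these data. The median log2 fold change of the members was -0.25, -0.50 and -0.10 in the 3 comparisons, in the order given above, against -0.03, 0.01 and 0.00 over all genes. The sizes of change, without sign, had medians of 0.32, 0.62 and 0.28 against 0.24, 0.36 and 0.23. DNMT1, DNMT3B, EZH2, EED and SUZ12 were lower and DNMT3A and EZH1 higher in both treated groups than in DMSO. TET2 and TET1 were each lower in 1 of the treated groups, and TET3 was called in none of the comparisons.

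**Figure D1:**
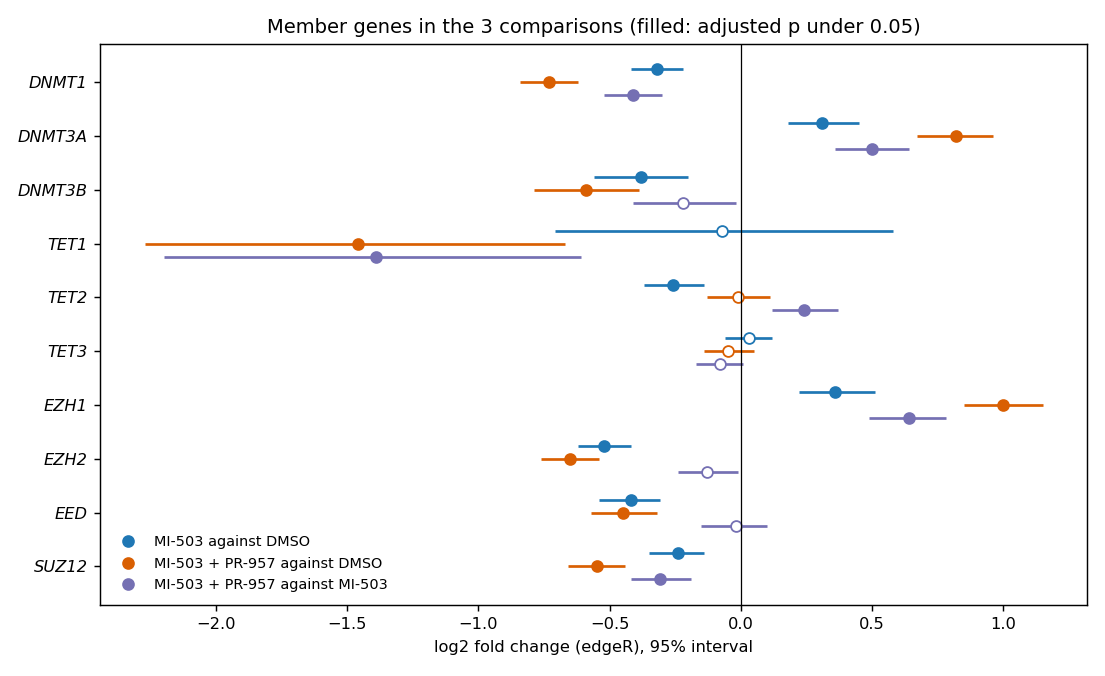
Fitted log2 fold change (horizontal axis) of each member gene in the 3 comparisons, with 95% intervals as lines and filled points where the edgeR adjusted p was under 0.05. EZH1 and DNMT3A lie to the right in all 3 comparisons, DNMT1 and SUZ12 to the left in all 3, and TET3 near 0.

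DNMT1, the maintenance methyltransferase, fell stepwise. It stood at 767, 715, 771 and 757 CPM in DMSO replicates 1 to 4, at 559, 586, 634 and 637 CPM in MI-503 replicates 1 to 4, and at 457, 441 and 465 CPM in combination replicates 1, 2 and 4. All libraries of a group lay apart from those of the others, and the combination libraries were the lowest. MI-503 lowered DNMT1 with a log2 change of -0.32 (SE 0.05, edgeR adjusted p = 2.82e-05), a difference of -19.7%. The combination lowered it with a log2 change of -0.73 against DMSO (SE 0.05, edgeR adjusted p = 2.15e-09, a difference of -39.6%) and of -0.41 against MI-503 (SE 0.05, edgeR adjusted p = 5.71e-06). In bulk RNA, fewer cells that express a gene and less RNA per cell cannot be told apart.

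DNMT3A, a de novo methyltransferase, went the other way. Its CPM were 25.7, 26.2, 25.8 and 24.9 in DMSO, 33.9, 32.0, 31.7 and 30.0 in MI-503, and 50.6, 42.8 and 41.5 in the combination. The groups did not overlap, and combination replicate 1 was the highest library. The log2 fold change was 0.31 after MI-503 (SE 0.06, edgeR adjusted p = 5.90e-04), 0.82 for the combination against DMSO (SE 0.07, edgeR adjusted p = 1.26e-08, a fold of 1.76) and 0.50 for the combination against MI-503 (SE 0.07, edgeR adjusted p = 1.00e-05). Leaving out combination replicate 1 gave 0.73 (edgeR adjusted p = 9.87e-11) against DMSO and 0.38 (edgeR adjusted p = 6.87e-06) against MI-503, both called.

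DNMT3B, the other de novo methyltransferase, stood at 39.3, 39.6, 36.9 and 36.3 CPM in DMSO, 29.9, 30.4, 28.7 and 28.2 CPM in MI-503, and 30.4, 24.1 and 20.5 CPM in the combination. MI-503 and combination libraries were all below DMSO, but the combination was spread widely, and its replicate 1 lay just above the highest MI-503 library. The log2 fold change was -0.38 after MI-503 (SE 0.09, edgeR adjusted p = 0.00144) and -0.59 for the combination against DMSO (SE 0.09, edgeR adjusted p = 2.91e-05). The combination was not called against MI-503, at -0.22 (95% interval -0.41 to -0.02, edgeR adjusted p = 0.0701). Without combination replicate 1 this difference was -0.43 and was called (edgeR adjusted p = 1.80e-05).

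The opposite directions of the de novo enzymes showed in their ratio. DNMT3A over DNMT3B, in TPM, was 0.257 ± 0.00796 (SD, n = 4) in DMSO, 0.415 ± 0.0138 (n = 4) in MI-503 and 0.694 ± 0.0704 (n = 3) in the combination, and no library of a group reached the range of another. DNMT3B nevertheless remained the more abundant of the pair in all 11 libraries. Their summed level was 24.3 ± 0.745, 21.2 ± 0.643 and 22.9 ± 3.49 TPM in the 3 groups. The combination's range of 19.7 to 26.6 TPM covered those of both other groups only with its replicate 1 (DNMT3A 10.3 and DNMT3B 16.3 TPM). The sums of the other combination libraries lay below the lowest DMSO sum of 23.5 TPM, and together still spanned the MI-503 range. DNMT1 over DNMT3A was 67.5 ± 3.21 in DMSO, 43.7 ± 4.71 in MI-503 and 23.4 ± 2.53 in the combination. The ratios are descriptions and were not tested.

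**Figure D2:**
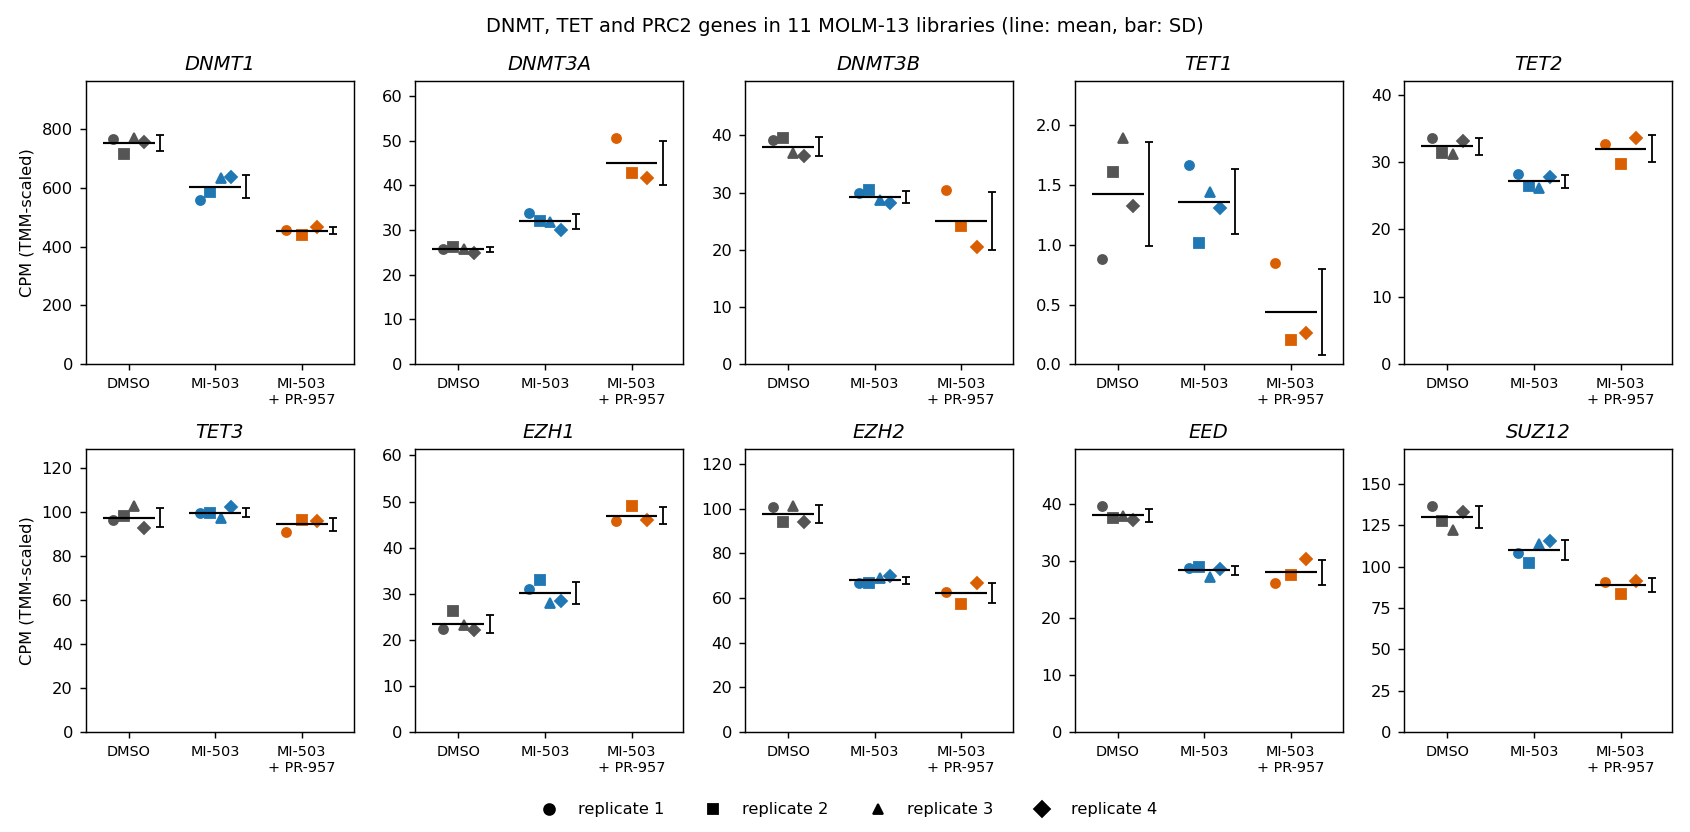
Level of each member gene (vertical axes, CPM scaled by TMM factors, each from 0) in the 11 libraries, with a point per library, a line at the group mean and a bar of 1 SD beside it. DNMT1 and SUZ12 step down and DNMT3A and EZH1 step up over the groups, while in DNMT3B and TET1 combination replicate 1 lies above the other combination libraries.

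Of the TET genes, TET3 was the most abundant and was not called in any comparison. It stood at 96.2, 98.2, 103 and 92.6 CPM in DMSO, 99.5, 99.7, 97.2 and 102 CPM in MI-503, and 90.8, 96.2 and 96.0 CPM in the combination. The 3 groups lay close together, and the combination libraries were slightly below the MI-503 libraries. Its log2 fold changes were 0.03 (95% interval -0.06 to 0.12) after MI-503, -0.05 (-0.14 to 0.05) for the combination against DMSO and -0.08 (-0.17 to 0.01) against MI-503.

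TET2, the TET gene most often mutated in myeloid disease, was lower after MI-503 alone and not in the combination. Its CPM were 33.6, 31.3, 31.3 and 33.1 in DMSO, 28.2, 26.4, 26.2 and 27.7 in MI-503, and 32.7, 29.7 and 33.5 in the combination. The MI-503 libraries were the lowest 4 of all, and the combination libraries overlapped the DMSO range. MI-503 lowered TET2 with a log2 change of -0.26 (SE 0.05, edgeR adjusted p = 7.91e-04). The combination was higher than MI-503 by 0.24 (SE 0.06, edgeR adjusted p = 0.00231) and differed from DMSO by -0.01 (95% interval -0.13 to 0.11, edgeR adjusted p = 0.859). TET2 was the 1 member that was lower after MI-503 and higher in the combination than in MI-503.

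TET1, the TET enzyme typical of stem and germ cells, was barely detected. Its counts were 26, 35, 40 and 28 fragments in DMSO, 36, 35, 35 and 32 in MI-503, and 36, 4 and 7 in the combination, whose replicate 1 was the deepest library. In CPM these were 0.878, 1.61, 1.90 and 1.33, then 1.67, 1.02, 1.45 and 1.31, then 0.850, 0.201 and 0.260. Combination replicates 2 and 4 were far below all other libraries, whereas replicate 1 was just below the lowest DMSO library. TET1 fell in the combination with a log2 change of -1.46 against DMSO (SE 0.38, edgeR adjusted p = 0.00267) and -1.39 against MI-503 (SE 0.38, edgeR adjusted p = 0.00551). Leaving out combination replicate 1 gave -2.53 against DMSO (edgeR adjusted p = 1.55e-05) and -2.50 against MI-503 (edgeR adjusted p = 3.05e-05). MI-503 against DMSO was not called, at -0.07 with a 95% interval of -0.71 to 0.58, so a change within those bounds was not detectable at this depth. TET1 made up 0.962%, 0.938% and 0.308% of the TET transcripts in DMSO, MI-503 and the combination, and the summed TET level was 20.5 ± 0.664, 20.1 ± 0.725 and 21.2 ± 0.664 TPM in the same order.

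The catalytic subunits of PRC2 changed in opposite directions. EZH2 stood at 101, 94.1, 101 and 93.9 CPM in DMSO, 66.6, 66.8, 68.7 and 69.8 CPM in MI-503, and 62.8, 57.3 and 66.6 CPM in the combination. All treated libraries were below all DMSO libraries, and the combination libraries lay under the lowest MI-503 library, replicate 4 only just. MI-503 lowered EZH2 with a log2 change of -0.52 (SE 0.05, edgeR adjusted p = 1.52e-07, a difference of -30.3%) and the combination with -0.65 (SE 0.05, edgeR adjusted p = 1.05e-08). The combination was not called against MI-503, at -0.13 (95% interval -0.24 to -0.01, edgeR adjusted p = 0.0589), but this value crossed the threshold in 5 of 20 alternative settings, among them without combination replicate 1 (-0.16, edgeR adjusted p = 0.0255) and without combination replicate 4 (-0.21, edgeR adjusted p = 0.00294).

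EZH1 stood at 22.3, 26.2, 23.2 and 22.1 CPM in DMSO, 31.1, 33.0, 28.0 and 28.5 CPM in MI-503, and 45.8, 49.1 and 46.0 CPM in the combination. Groups did not overlap, and the combination libraries were close to each other and the highest. The log2 fold change was 0.36 after MI-503 (SE 0.07, edgeR adjusted p = 2.27e-04), 1.00 for the combination against DMSO (SE 0.07, edgeR adjusted p = 1.73e-09) and 0.64 for the combination against MI-503 (SE 0.07, edgeR adjusted p = 1.17e-06). With a fold of 2.00, EZH1 had the largest rise of the 10 members in the combination, and its interval against DMSO ran from 0.85 to 1.15.

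Per length, EZH2 exceeded EZH1 by 2.88 ± 0.283 times (SD, n = 4) in DMSO and by 1.56 ± 0.151 times (n = 4) in MI-503, and the ratio was 0.916 ± 0.1002 (n = 3) in the combination. By library, the ratio was 3.12, 2.47, 3.01 and 2.93 in DMSO, 1.48, 1.40, 1.69 and 1.69 in MI-503, and 0.946, 0.804 and 0.998 in the combination. The order of the pair was thus turned in 3 of 3 combination libraries, although replicate 4 lay at equality and the TPM ranges of the genes overlapped there (24.3 to 27.1 TPM for EZH1, 21.8 to 24.7 TPM for EZH2). EZH1 supplied 25.9 ± 2.01% of the summed EZH transcripts in DMSO, 39.1 ± 2.32% in MI-503 and 52.3 ± 2.80% in the combination. The sum itself was 45.7 ± 1.29, 39.0 ± 0.886 and 48.5 ± 1.08 TPM. TPM carry no TMM factor, so small differences between groups can depend on the scaling. EED, for example, went from 7.35 TPM in MI-503 to 7.73 TPM in the combination, but from 28.4 to 28.0 CPM. Differences between groups in the summed levels were not tested.

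**Figure D3:**
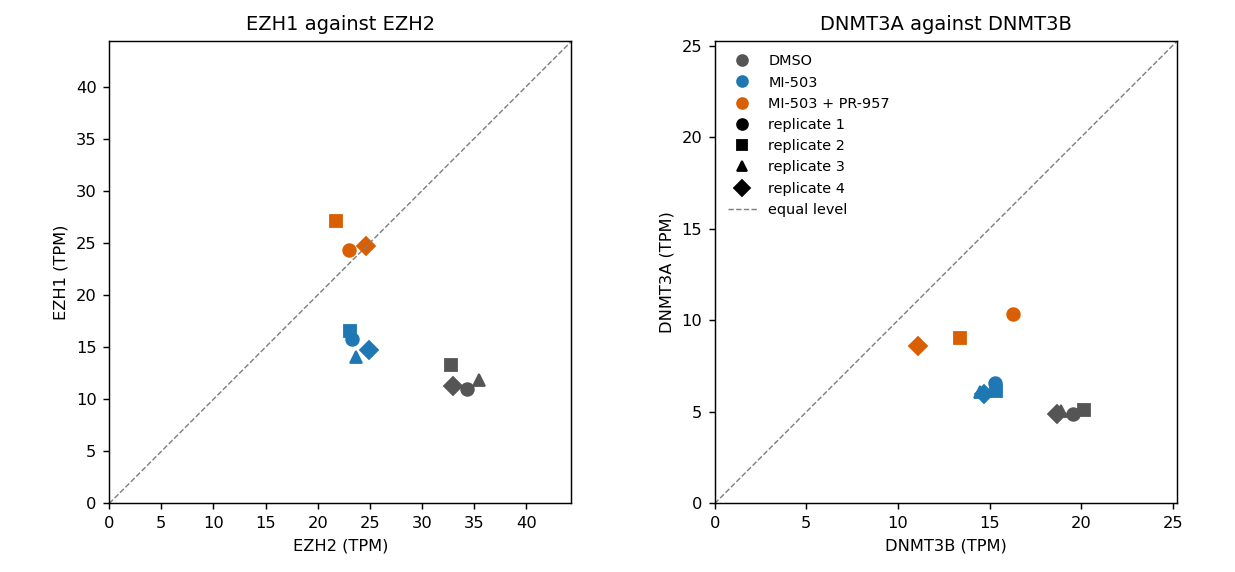
Levels in TPM of EZH1 (vertical) against EZH2 (horizontal) on the left and of DNMT3A against DNMT3B on the right, with a point per library, colored by group and shaped by replicate, and a dashed line of equal level. Combination libraries lie on or above the line for the EZH pair, whereas all 11 libraries lie under it for the DNMT3 pair.

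The subunits that both enzymes share were lower as well. EED, which reads methylated H3K27, stood at 39.8, 37.5, 37.9 and 37.2 CPM in DMSO, 28.7, 29.0, 27.3 and 28.6 CPM in MI-503, and 26.2, 27.5 and 30.4 CPM in the combination. All treated libraries were below DMSO, and the treated groups overlapped. MI-503 lowered EED with a log2 change of -0.42 (SE 0.05, edgeR adjusted p = 5.31e-06) and the combination with -0.45 (SE 0.06, edgeR adjusted p = 3.36e-06). The combination differed from MI-503 by -0.02 (95% interval -0.15 to 0.10, edgeR adjusted p = 0.782).

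SUZ12, the scaffold of the complex, stood at 137, 127, 122 and 133 CPM in DMSO, 108, 102, 114 and 116 CPM in MI-503, and 90.8, 83.8 and 91.5 CPM in the combination. It stepped down in the manner of DNMT1, with no overlap between groups. Its log2 fold change was -0.24 after MI-503 (SE 0.05, edgeR adjusted p = 5.80e-04), -0.55 for the combination against DMSO (SE 0.05, edgeR adjusted p = 1.13e-07) and -0.31 for the combination against MI-503 (SE 0.05, edgeR adjusted p = 1.73e-04). SUZ12 over EED, in TPM, was 6.93 ± 0.304 in DMSO, 7.88 ± 0.589 in MI-503 and 6.45 ± 0.516 in the combination. EZH2 over EED was 3.45 ± 0.103, 3.23 ± 0.142 and 3.00 ± 0.218.

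As levels shifted, the order of the members in TPM did too. In MI-503, TET3 (15.9 ± 0.553), EZH1 (15.2 ± 1.11) and DNMT3B (14.96 ± 0.436 TPM) were neighbors whose ranges overlapped. In the combination EZH1 (25.4 ± 1.49 TPM) stood in the third place beside EZH2 (23.1 ± 1.45 TPM), and DNMT3A (9.32 ± 0.907 TPM) stood above EED (7.73 ± 0.617 TPM) in 3 of 3 libraries, the reverse of their order in DMSO. DNMT1 (271 ± 18.9 in MI-503 and 217 ± 3.76 TPM in the combination) and SUZ12 (57.9 ± 3.71 and 49.7 ± 1.59 TPM) remained the top 2, and TET1 the lowest.

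Accessory subunits of PRC2, which guide it to chromatin, were followed as a list of 10 genes, of which 8 were tested and EPOP and EZHIP had at most 1 count in any library. After MI-503, 1 was called higher and 4 lower (median log2 fold change -0.10), and in the combination 1 was higher and 6 lower against DMSO (median -0.42) and 1 higher and 6 lower against MI-503 (median -0.28). The histone-binding subunits RBBP7 (log2 fold change -0.70, SE 0.05, edgeR adjusted p = 5.26e-09) and RBBP4 (-0.52, SE 0.04, edgeR adjusted p = 5.77e-09) fell in the combination relative to DMSO, and both also serve other chromatin complexes. RBBP7 (-0.35), AEBP2 (-0.24) and MTF2 (-0.28) were already lower after MI-503. PHF1, a Polycomb-like subunit, rose in the combination from 5.16 ± 0.679 CPM in DMSO (n = 4) to 9.85 ± 0.628 CPM (n = 3), a log2 change of 0.94 (SE 0.11, edgeR adjusted p = 6.27e-07), and was not called after MI-503 (0.06, edgeR adjusted p = 0.648). JARID2, which recruits PRC2, was 0.19 higher after MI-503 (edgeR adjusted p = 0.00193) and lower in the combination than in MI-503 with a log2 fold change of -0.50 (270 ± 15.1 against 191 ± 4.79 CPM, edgeR adjusted p = 5.29e-07).

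PRC1, which binds the H3K27 mark and modifies histone H2A, showed no common direction. Of 22 listed subunits 20 were tested. RING1, with at most 3 counts in any library, and PCGF2, with 0, were outside the filter. Whether their sequences recur elsewhere in the genome was not checked, so these low counts do not show that the genes were silent. Called higher and lower were 5 and 9 after MI-503, 5 and 7 in the combination against DMSO, and 5 and 6 against MI-503, with medians of -0.07, -0.04 and -0.03. After MI-503 the calls numbered 9 (2 higher, 7 lower) without MI-503 replicate 1 and as many without MI-503 replicate 2, and with upper-quartile scaling the combination against DMSO gave 9 higher and 6 lower. BMI1, a core subunit of self-renewing cells, fell from 81.9 ± 3.53 CPM in DMSO to 63.1 ± 2.56 in MI-503 and 47.4 ± 7.20 in the combination (log2 fold changes -0.38 and -0.78 against DMSO, edgeR adjusted p = 1.88e-04 and 8.43e-08). RNF2, the catalytic ubiquitin ligase (-0.56, edgeR adjusted p = 2.28e-06), and SCMH1 (-0.40, edgeR adjusted p = 1.48e-06) fell in the combination too. CBX6 was higher after MI-503 (0.42, edgeR adjusted p = 1.61e-06) and lower in the combination than in MI-503 (-0.35), and PHC1 was higher in the combination than in MI-503 (0.70, edgeR adjusted p = 1.55e-05). Of the H3K27 demethylases, KDM6B rose in the combination from 48.8 ± 4.44 CPM in DMSO and 49.4 ± 1.59 in MI-503 to 87.8 ± 10.4 (log2 fold change 0.85 against DMSO, edgeR adjusted p = 2.40e-08). KDM6A was called lower after MI-503 (-0.16, edgeR adjusted p = 0.0435), a call that was lost in 16 of 19 alternative settings.

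Among 14 partners and readers of DNA methylation, 12 were tested (DNMT3L and ZBTB4 were outside the filter). After MI-503 1 was higher and 6 lower, against 3 higher and 6 lower in the combination against DMSO and 4 and 4 against MI-503, with medians of -0.15, -0.15 and 0.05. UHRF1, which brings DNMT1 to newly copied DNA, was lower after MI-503 (-0.37, SE 0.06, edgeR adjusted p = 6.55e-05) and in the combination (-0.77 against DMSO, edgeR adjusted p = 1.87e-08). HELLS, a remodeler needed for DNA methylation, went from 109 ± 4.38 CPM in DMSO to 53.3 ± 3.68 in the combination, by -1.04 on the log2 scale (SE 0.06, edgeR adjusted p = 1.05e-10). MBD3 was lower after MI-503 (-0.48) and in the combination (-0.93 against DMSO), as was MBD2 (-0.15 and -0.60). UHRF2 was lower than in DMSO by a log2 fold change of -0.58 after MI-503 and -0.57 in the combination, which differed from MI-503 by 0.01 (edgeR adjusted p = 0.896). MBD4, a glycosylase that repairs deaminated methylcytosine, was higher in the combination than in DMSO (0.68, SE 0.05, edgeR adjusted p = 1.00e-09) and than in MI-503 (0.48, edgeR adjusted p = 2.79e-07).

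Genes that work after or beside the TETs (12 listed, 11 tested, CXXC4 outside the filter) were split, with 4 higher and 4 lower after MI-503, 4 and 4 in the combination against DMSO, and 2 and 4 against MI-503 (medians -0.05, 0.10 and -0.09). With upper-quartile scaling the combination against DMSO gave 6 higher and 4 lower. TDG, which excises oxidized methylcytosine, was lower after MI-503 (-0.45, edgeR adjusted p = 1.06e-06). The isocitrate dehydrogenases, which make the 2-oxoglutarate that TETs use, moved apart. IDH1 rose from 110.3 ± 2.99 CPM in DMSO to 165 ± 4.03 in MI-503 and 185 ± 4.94 in the combination, while IDH2 went from 247 ± 10.7 to 208 ± 9.18 and 147 ± 14.9 CPM. Against DMSO these were log2 fold changes of 0.74 (SE 0.04, edgeR adjusted p = 9.98e-11) and -0.75 (SE 0.06, edgeR adjusted p = 1.02e-08) in the combination. GADD45A, a stress gene also tied to demethylation, went from 10.1 ± 0.739 CPM in DMSO and 11.5 ± 0.200 in MI-503 to 27.2 ± 1.53 in the combination (log2 fold change 1.42 against DMSO, SE 0.07, edgeR adjusted p = 4.15e-11).

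The S-adenosylmethionine cycle makes the methyl donor of DNMTs and PRC2. After MI-503, 5 of its 6 listed genes were lower and 1 was higher (median -0.17), and the same counts held in the combination against DMSO (median -0.53), while against MI-503 4 were lower and 1 higher (median -0.33). After MI-503, 3 were called lower when any 1 of the combination libraries was left out of the shared fit, and with upper-quartile scaling. MTR, methionine synthase, was lower after MI-503 (-0.26, edgeR adjusted p = 2.69e-05) and in the combination (-0.60, edgeR adjusted p = 1.80e-09), and AHCY, which clears the product inhibitor of methyltransferases, was lower in the combination (-0.57, edgeR adjusted p = 2.77e-09). MTAP was lower after MI-503 (-0.31) and MAT2A, the synthetase of S-adenosylmethionine, lower in the combination than in MI-503 (-0.36, edgeR adjusted p = 4.47e-05).

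Most replication and proliferation genes were lower in all 3 comparisons, as were DNMT1 and SUZ12, whereas EZH2, DNMT3B and EED were called lower against DMSO but not in the combination against MI-503. Of the 25 genes listed 24 were tested (E2F2 was outside the filter), and 22 were lower after MI-503, 24 in the combination against DMSO and 23 against MI-503, with none called higher and medians of -0.45, -0.95 and -0.55. The helicase subunit MCM6 went from 261 ± 9.98 CPM in DMSO to 177 ± 11.1 in MI-503 and 119 ± 14.2 in the combination, and MCM4 from 746 ± 17.0 to 575 ± 33.3 and 354 ± 34.6 CPM. CDK1, the mitotic kinase, had log2 fold changes of -0.46 after MI-503 and -1.05 in the combination (edgeR adjusted p = 1.04e-06 and 6.31e-11), and RRM1 was lower after MI-503 (-0.54). MCM2 (-0.64) and MCM3 (-0.60) were lower in the combination than in MI-503. The part of these genes in the members' values was not tested.

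Genes that depend on these silencing systems in other cells were mostly at or near 0. Of 21 germline genes usually held silent by promoter methylation, 19 were outside the filter. DAZL, MAGEA1, MAGEA3, MAGEA4, MAGEC2, SSX1, SSX2, CTAG1B, CTAG2, PRAME and STK31 had no count in any library, and DDX4, TEX101, MAGEB2, BRDT, SYCE1, TDRD1, TKTL1 and PIWIL1 had at most 11. Copies of these genes elsewhere in the genome were not checked. A count of 0 could therefore also come from reads that match several places and were not counted. The 2 tested genes were both higher in each treated group than in DMSO, at low levels. MAEL stood at 0.808 ± 0.165 CPM in DMSO, 1.75 ± 0.216 in MI-503 and 1.39 ± 0.236 in the combination (log2 fold changes 1.10 and 0.77 against DMSO, edgeR adjusted p = 1.96e-04 and 0.00487). SYCP3 stood at 0.614 ± 0.133, 1.12 ± 0.134 and 1.10 ± 0.117 CPM (0.84 and 0.84, edgeR adjusted p = 0.00358 and 0.00382). Neither was called between the treated groups. DNA methylation itself was not measured here.

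Of 23 developmental genes that carry Polycomb marks in other cells, 14 were outside the filter, with HAND1, GATA4, TBXT, ISL1, GSC and HOXD11 at no count and PAX2, NEUROG1, NEUROD1, SOX17, NKX2-5, WNT1, WNT3A and HOXD13 at no more than 4. Of the 9 tested, 2 were higher and 5 lower after MI-503, 1 higher and 5 lower in the combination against DMSO, and 2 lower against MI-503 (medians -0.33, -0.87 and -0.37). OLIG2 stood at 2.82 ± 0.772 CPM in DMSO, 6.86 ± 1.05 in MI-503 and 5.94 ± 0.625 in the combination (1.30 and 1.10 against DMSO, edgeR adjusted p = 4.42e-06 and 2.69e-05). HOXC10 was higher after MI-503 (0.71, edgeR adjusted p = 8.65e-07) and lower in the combination than in MI-503 (-0.79, edgeR adjusted p = 9.07e-07). SIX2 was called lower in both treated groups at levels close to 0, with 0.831 ± 0.0978 CPM in DMSO, 0.185 ± 0.0795 in MI-503 and 0.0685 ± 0.0434 in the combination (edgeR adjusted p = 4.14e-05 and 1.83e-06). FOXA2 (0.512, 0.211 and 0.126 CPM in DMSO, MI-503 and the combination) and LHX2 (0.645, 0.340 and 0.262 CPM) were also called lower in both treated groups. Genes this low, SIX2 included, could pass the filter through DMSO, the group in which they were highest. Their calls, the counts of lower genes and the list medians therefore depend in part on the filter. Under the stricter filter on low counts only 4 of the list were called after MI-503 and 3 in the combination against DMSO. H3K27 methylation was not measured in these libraries.

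**Figure D4:**
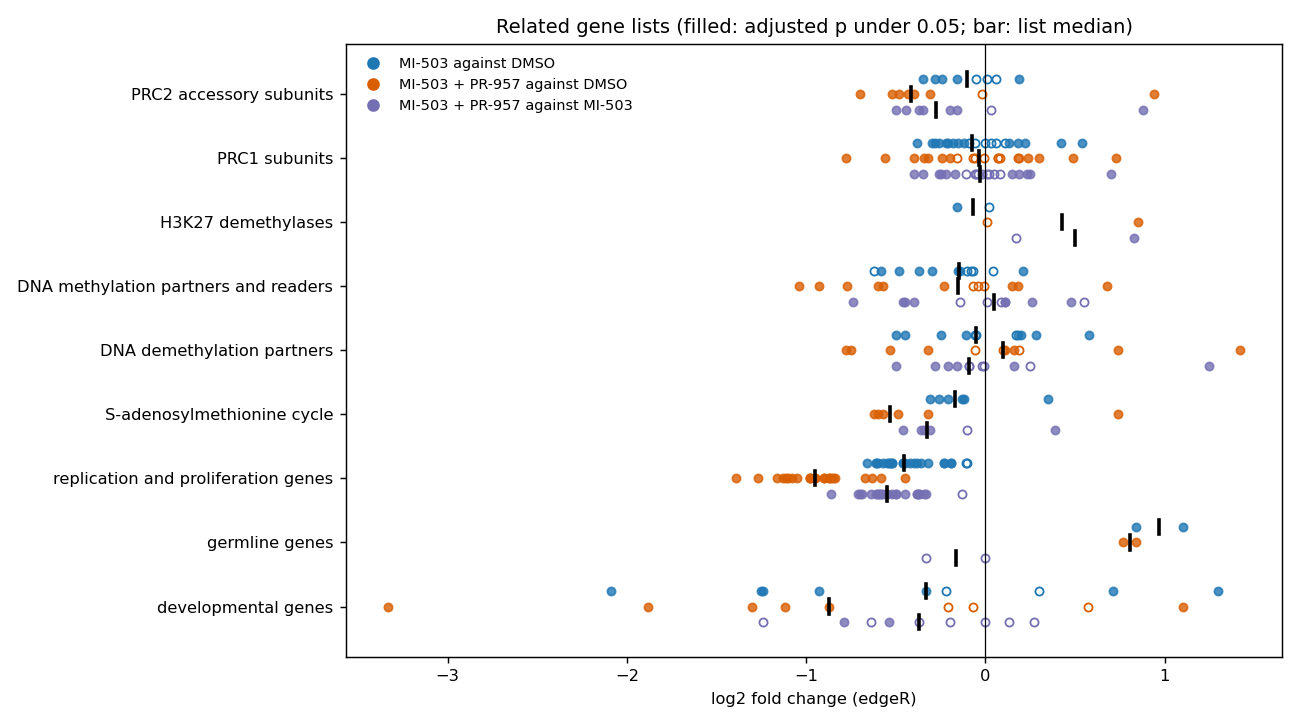
Log2 fold change (horizontal axis) of each tested gene of the 9 related lists in the 3 comparisons, with filled points where the edgeR adjusted p was under 0.05 and a bar at the list median. Replication and proliferation genes lie to the left of 0 throughout, S-adenosylmethionine genes mostly so, and the PRC1 and demethylation lists lie on both sides.

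Finally, the genes most like each member called in the combination against DMSO were sought among 10041 genes averaging 5 CPM or more, by the root mean square distance between log2 CPM profiles over the 11 libraries after each gene was centered on its own mean. DNMT1 was nearest to ATP5F1A (distance 0.0358 on the log2 scale), RAN (0.0374) and RBMX (0.0423), against its own spread of 0.293. SUZ12 was nearest to PGM2 (0.0340), SUPT16H (0.0366) and PPP5C (0.0388), EZH2 to MRPL28 (0.0463), NUP188 (0.0469) and TIMM50 (0.0470), and EED to TAF5 (0.0453), KBTBD2 (0.0481) and MRPL50 (0.0484). DNMT3B was nearest to KRT18 (0.0479), PAN3 (0.0608) and TTC28 (0.0614). Of the risers, EZH1 had among its nearest genes RSPH3 (0.0459) and GLRX (0.0650), and DNMT3A to ZNF277 (0.0470), INPP4A (0.0489) and ABCC5 (0.0608). TET1, with few counts, had no close neighbor, since TBXA2R (0.409) and FCGR2B (0.458) were among the nearest. The points of each profile share the treatment groups, and the distances are a description.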

How the data were processed

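Poly(A) RNA of MOLM-13 cells had been read in pairs (NovaSeq, TruSeq kit). Trimmomatic 0.39 and STAR 2.7.10a are named in the submitters' processing notes. The deposited count tables give unnormalized fragments per gene, which, per the file headers, the authors made with featureCounts 2.0.1 over RefSeq exons of hg38, without regard to strand, from alignments filtered in a way the headers do not describe. The joined table and the single-library counts differed in 0 cells. The authors' DESeq2 tables hold their own fold changes and p-values for both treatments against DMSO and were not used.

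The analysis used edgeR 4.0.16 in R 4.3.3 (filterByExpr with minimum count 10 and minimum total 15, TMM factors 0.956 to 1.06, quasi-likelihood test, two-sided, Benjamini-Hochberg adjustment over 14683 genes). All 11 libraries, grouped by their labels, entered 1 model with a mean per group. Replicates varied by 6.14% (biological coefficient of variation), and the model had 8 residual degrees of freedom. Intervals are 95%. CPM used TMM-scaled totals, and TPM used the exonic length in the count files. The main test is edgeR where the study used DESeq2, which was run as an alternative (DESeq2 1.42.0), as was limma-voom (limma 3.58.1). Python 3.11.15 with pandas 2.3.3 and matplotlib 3.10.9 was used for summaries and plots. The fit was tested on simulated data.

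The members and the related gene lists were chosen with earlier results of these data known, so no p-value was computed over a list. Genes named from a list were, in each comparison, the 3 called genes with the smallest adjusted p, or all where 3 or fewer were called, and those outside the filter. Some further values of these genes or their list neighbors in the other comparisons were added after values were seen. Copies elsewhere in the genome were checked for the members only. Low or absent counts of list genes could therefore also come from reads that match several places and were not counted. Some genes that this rule names are not reported here.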

Additional observations from a re-analysis of the deposited data

How the results depend on the processing

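Each member's fold change in 3 comparisons was recomputed under 20 alternatives, 600 values in all. Without 1 library, the unstable values ran from -0.27 to 0.10 (TET1 after MI-503), -0.05 to 0.03 (TET2 in the combination against DMSO) and -0.12 to 0.01 (EED in the combination against MI-503). Direction and side of the threshold were kept in 578 values, 11 newly passed it and 11 changed sign, all of the latter in results not called. The sign changes were TET1 after MI-503 (0.00, 0.10 and 0.07 without DMSO replicate 2, DMSO replicate 3 or MI-503 replicate 2), TET2 in the combination against DMSO (0.06 with upper-quartile factors, 0.01 with no filter, 0.02 with the stricter filter, 0.00 with only the groups compared, 0.01 and 0.03 without DMSO replicate 1 or combination replicate 2), TET3 in the same comparison (0.02 with upper-quartile factors) and EED against MI-503 (0.01 without combination replicate 1). The cause was not tested. The values that newly passed were all in the combination against MI-503, namely DNMT3B with RLE factors (-0.23), no filter (-0.21), DESeq2 (-0.24), the replicate block (-0.24) or without combination replicate 1 (-0.43), EZH2 with RLE factors (-0.14), the stricter filter (-0.14), DESeq2 (-0.14) or without combination replicate 1 (-0.16) or 4 (-0.21), and TET3 without combination replicate 4 (-0.13). Leaving out each library gave 8, 8 and 6 to 8 members called, and 6663 to 8131, 8829 to 9355 and 6127 to 7268 genes called. Upper-quartile factors moved the share of calls that were higher after MI-503 from 42.9% to 54.2%. Ranks of the members by RPKM and by TPM were the same in each group.

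The labels do not say whether replicate numbers pair the samples. Deviations of 10 same-numbered pairs correlated at -0.102 to 0.144, with 1 pair above 0.1. Pairs with different numbers correlated at -0.132 to 0.116. With so few libraries per group these values cannot settle whether samples were paired. With the replicate block 8, 8 and 7 members were called in the 3 comparisons, and 7630, 9312 and 6813 genes. TET1, with as few as 4 counts in a library, is limited by depth, and the other members by the 3 or 4 libraries per group. List calls picked by the naming rule were kept in all alternatives run on them, KDM6A excepted. Further values of list genes, such as MBD2 and JARID2 after MI-503, were not followed in this way. With upper-quartile scaling, 4 rather than 6 of the partners and readers of DNA methylation were called lower after MI-503. None of 20 groups of 4 libraries, each member in DMSO and in MI-503, held an outlying value by Dixon's test, where chance gives about 1 in 20. The combination, with 3 libraries, was not included in that test.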
